A study of Arabidopsis thaliana with 6 samples.

Results

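The IQD family of Arabidopsis thaliana comprises 33 loci, numbered IQD1 to IQD33, and its members were taken from that list of loci. The rule held no measured value, but members and number groups were chosen with earlier results of these data known. A locus counted as measured when the platform's probe table paired it with a probe set of 1 gene, which held for 17 of the 33. Each of the 17 had 1 such probe set. The measured genes were IQD15, IQD16, IQD18 and every number from IQD19 to IQD32. IQD1 to IQD14, IQD17 and IQD33 were not analysed here. Over the whole series, 16418 loci were measured in this way.

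IQD proteins are calmodulin-binding scaffolds of plants, named for the run of IQ motifs through which they contact calmodulin. Many of them sit on cortical microtubules, where they are thought to link calcium signals to microtubule order, to kinesin light chain-related proteins and through these to the placing of cellulose in the wall. Members have been tied to cell shape, to the position of the division plane and to patterned wall thickening. The genes numbered IQD15 to IQD18 are close relatives that have been described as regulated by auxin, and IQD16 is also known as ABS6, a partner of the microtubule-severing protein katanin.

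All 6 arrays came from whole seedlings of 1 line, 35S::PLT2-GR, in which the 35S promoter, active in most tissues, drives the AP2-domain transcription factor PLT2 joined to the steroid-binding part of the glucocorticoid receptor. Seedlings 4 days old spent the night in liquid culture, about 50 to a flask of 50 ml. The next day 3 flasks received dexamethasone at 10 µM, which lets such a fusion act in the nucleus, and 3 mock flasks received the solvent DMSO, each for 6 h. Each array is 1 flask, and the labels call the 3 per group biological replicates. Both groups carry the fusion, and no dexamethasone-treated seedlings without it are among these arrays, so effects of the steroid and of the fusion cannot be told apart. PLT2 was not analysed here.

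The comparison asks which IQD transcripts differ after 6 h of dexamethasone. Array medians lay between 5.43 and 5.48 on the log2 scale, and arrays correlated at 0.9904 to 0.9939 within groups and 0.9761 to 0.981 between groups over the 17504 probe sets with a gene. Leaf and root signals were both present: the Rubisco activase gene RCA had a mock mean of 11.14 and the root hair expansin gene EXPA7 one of 6.21. Every IQD value lay above the first quartile of its array. The number of arrays limits the precision.

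After dexamethasone, IQD15, IQD16 and IQD18 rose, by 2.98-fold, 3.85-fold and 1.73-fold. These were the only measured members of the group numbered IQD15 to IQD18, and no other measured IQD gene rose past the threshold, an adjusted p of 0.05 from limma. IQD24 fell by 0.59 and IQD20 fell by 0.55 on the log2 scale, the latter just past the threshold. The other 12 did not pass. Thus 5 of 17 measured IQD genes passed (29.4%), 3 upward and 2 downward, where over all probe sets with a gene 18.6% passed, 9.04% upward and 9.54% downward. The median log2 change over the 17 genes was -0.14, and over all probe sets tested it was 0.02.

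**Figure D1:**
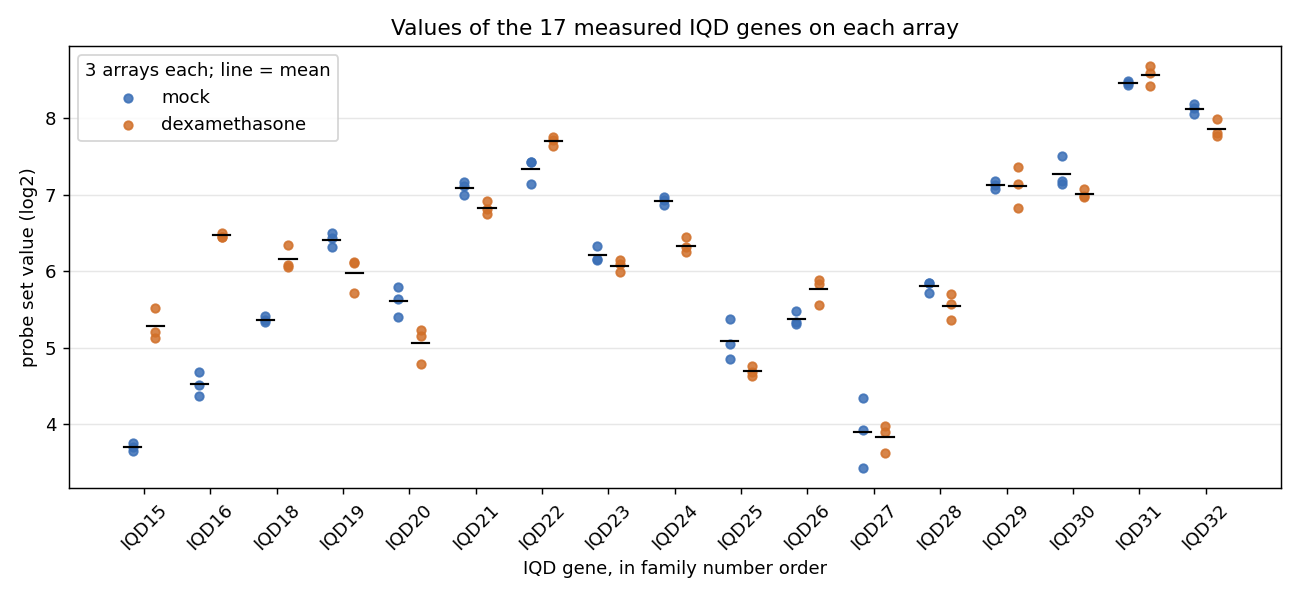
Log2 probe set value (vertical axis) of each measured IQD gene (horizontal axis) on the 3 mock arrays (blue) and the 3 dexamethasone arrays (orange), with a line at each group mean. For IQD15, IQD16 and IQD18 the dexamethasone arrays lie above the mock arrays by a wide gap, from a mock mean of 4.53 to 6.47 for IQD16, while the other genes shift by less than 0.6.

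IQD16 (AT4G10640) had log2 values of 4.37, 4.52 and 4.68 in mock replicates 1, 2 and 3, and of 6.45, 6.50 and 6.45 in the dexamethasone replicates. The gap between the groups exceeded the spread within them, and the dexamethasone arrays were nearly equal (SD 0.03, n = 3, against 0.16 in mock). The log2 change was 1.94 (SE 0.11, limma adjusted p 1.38e-04), and its 95% interval corresponds to a fold of 3.23 to 4.57. It was larger than the change of 99.5% of all probe sets tested.

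IQD15 (AT3G49380), of the same auxin-linked group, had mock values of 3.71, 3.65 and 3.76 and dexamethasone values of 5.12, 5.52 and 5.20. No array of one treatment came near the range of the other. The log2 change was 1.58 (SE 0.12, limma adjusted p 5.84e-04), a fold between 2.43 and 3.65 by its 95% interval.

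IQD18 (AT1G01110) had mock values of 5.41, 5.36 and 5.33 and dexamethasone values of 6.34, 6.08 and 6.06. The groups were again apart, with the highest value in dexamethasone replicate 1. Its log2 change of 0.79 (SE 0.11, limma adjusted p 0.00389) had a 95% interval of 0.54 to 1.04, below the intervals of IQD15 (1.28 to 1.87) and IQD16 (1.69 to 2.19), which overlapped each other. The differences in change between the 3 genes were not tested, so their order is not settled. With each array left out in turn, the log2 change stayed between 1.46 and 1.66 for IQD15, between 1.87 and 2.02 for IQD16 and between 0.70 and 0.84 for IQD18, and each gene passed in all 6 of these fits.

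**Figure D2:**
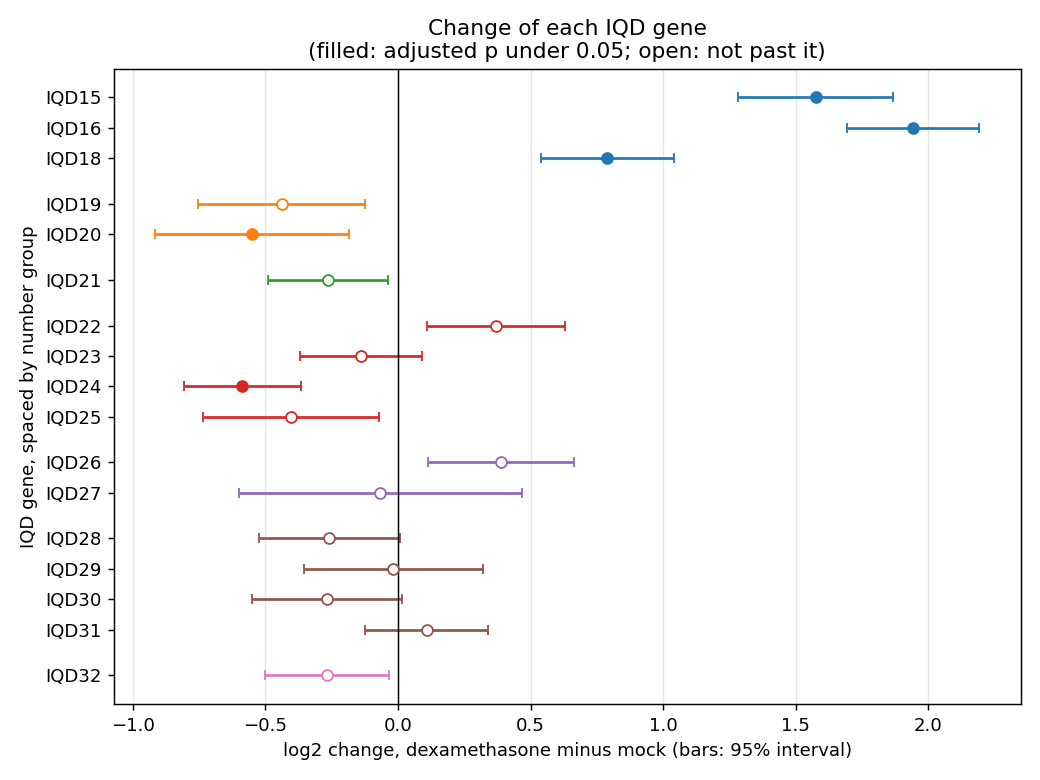
Log2 change, dexamethasone minus mock (horizontal axis), of each measured IQD gene (vertical axis, coloured and spaced by number group), with its 95% interval from limma. Filled points passed an adjusted p of 0.05. The 3 genes of the IQD15 to IQD18 group stand at 0.79 to 1.94, and all other genes lie between -0.59 and 0.39.

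Among the genes numbered IQD22 to IQD25 the changes went both ways. IQD24 (AT5G07240) had values of 6.92, 6.86 and 6.98 in mock and 6.25, 6.44 and 6.31 after dexamethasone, so that all 3 treated arrays were lower than every mock array. It fell by 0.59 on the log2 scale (SE 0.09, limma adjusted p 0.00731), and it passed with any 1 array left out. IQD22 (AT4G23060), described as a gene of the gibberellin response, had values of 7.42, 7.43 and 7.14 in mock and 7.71, 7.63 and 7.76 after dexamethasone. Its treated arrays were all higher than the mock arrays, but with a log2 change of 0.37 (SE 0.11) and an adjusted p of 0.0596 by limma it did not pass. IQD25 (AT4G29150), with mock values spread from 4.86 to 5.37, had a log2 change of -0.40 that did not pass (limma adjusted p 0.0936). IQD23 (AT5G62070) had a change of -0.14, with a 95% interval from -0.37 to 0.09. In this number group 1 of 4 genes fell, none rose, and the median change was -0.27.

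IQD19 (AT4G14750) and IQD20 (AT3G51380) both had lower values after dexamethasone. IQD20 had mock values of 5.79, 5.41 and 5.64 and treated values of 4.79, 5.16 and 5.24. The groups did not overlap, and the nearest arrays across them were mock replicate 2 and dexamethasone replicate 3. Its log2 change of -0.55 (SE 0.16) had an adjusted p of 0.0499 by limma, and the call was lost whichever array was left out. Leaving out mock replicate 1, 2 or 3 gave an adjusted p of 0.148, 0.0562 or 0.123, and leaving out dexamethasone replicate 1, 2 or 3 gave 0.113, 0.0867 or 0.0555. With the replicate number as a block its adjusted p was 0.101. IQD19 had values of 6.44, 6.49 and 6.31 in mock and 5.71, 6.11 and 6.10 after dexamethasone, again without overlap. Its change was -0.44 (SE 0.13), and it did not pass (limma adjusted p 0.0627).

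IQD26 (AT3G16490) and IQD27 (AT1G51960) were unlike in their values. IQD26 had 5.33, 5.48 and 5.31 in mock and 5.84, 5.57 and 5.89 after dexamethasone, a change of 0.39 (SE 0.12) that did not pass with all arrays (limma adjusted p 0.0606) and passed without dexamethasone replicate 2 (0.0391). IQD27 was the most variable member, with mock values of 3.93, 4.34 and 3.44 that enclosed all 3 treated values. Its 95% interval ran from -0.60 to 0.47, so changes within that range cannot be told from 0 here.

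The group numbered IQD28 to IQD31 held 4 measured genes, none of which passed. IQD31 (AT1G74690) had a log2 change of 0.11, with a 95% interval of -0.12 to 0.34 and values of 8.43 to 8.48 in mock and 8.42 to 8.68 after dexamethasone. IQD29 (AT2G02790) had a change of -0.02, and its treated arrays, from 6.83 to 7.36, enclosed the mock range. IQD28 (AT1G14380) had a change of -0.26 and IQD30 (AT1G18840) one of -0.27, both with treated arrays below every mock array. Their intervals reached -0.52 and -0.55 at the lower end and just above 0 at the other.

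The remaining measured genes stand alone in their numbering groups. IQD21 (AT3G49260) had values of 6.99 to 7.17 in mock and 6.75 to 6.92 after dexamethasone, a change of -0.26 with an adjusted p of 0.105 by limma. IQD32 (AT1G19870) had values of 8.05 to 8.18 in mock and 7.77 to 7.99 after dexamethasone, a change of -0.27 with an adjusted p of 0.109 by limma. Neither passed, although in both genes the groups did not overlap.

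The groups were thus apart in most members, even where the change was small, but in some only by a narrow gap. In 14 of 17 genes (82.4%) the treated and mock arrays did not overlap, 5 with higher and 9 with lower treated values. Over all probe sets with a gene this share was 38.1%, with 19.3% higher and 18.8% lower. A lack of overlap did not mean a wide gap. In IQD23 the lowest mock value was 6.151 and the highest treated value 6.146, and in IQD28 they were 5.722 and 5.697. All 17 genes were brighter than the dimmest 30% of probe sets, and among the 12253 probe sets brighter than that limit 48.6% did not overlap and 25% passed the threshold. By sign alone, 6 IQD genes had a positive and 11 a negative change, and no member changed sign with quantile normalization or with each array centred on its median. With 1 array left out, the change of IQD27 ran from -0.30 to 0.15 and that of IQD29 from -0.14 to 0.12. The signs of IQD27 and IQD29 were therefore not stable. The median absolute change was 0.37 for the IQD genes and 0.21 for all probe sets tested. The latter include the dimmest 30%, and this median was not computed for the brighter probe sets alone. As RNA came from whole seedlings, fewer cells of a type and less RNA per cell cannot be told apart in any of these values.

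**Figure D3:**
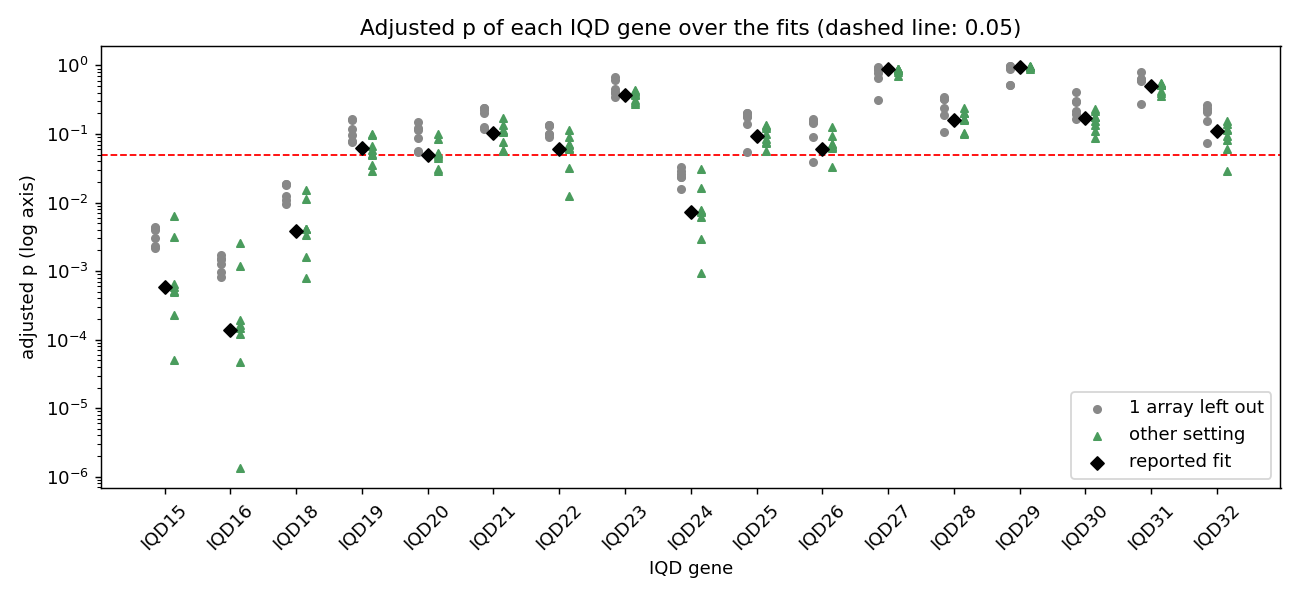
Adjusted p (vertical axis, log scale) of each measured IQD gene (horizontal axis) in the reported limma fit (black diamonds), with 1 array left out (grey points) and under other settings (green triangles), with the dashed line at 0.05. IQD15, IQD16, IQD18 and IQD24 lie below the line in every fit shown, whereas IQD20 at 0.0499 lies on both sides of it.

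Partners and other microtubule genes were taken from lists drawn up by function. Of 15 tubulin genes 6 were measured, and 3 beta-tubulin genes fell while none rose (background 9.54% downward and 9.04% upward). TUB1 had values of 6.99, 6.83 and 6.51 in mock and 5.75, 5.89 and 5.82 after dexamethasone, and fell by 0.96 on the log2 scale (SE 0.14, limma adjusted p 0.00484). TUB5 fell by 0.80 and TUB6 by 0.63, and in all 3 genes every treated array was below every mock array. The other 3 did not pass: TUA6 had a change of -0.27, TUB7 one of 0.10 and TUB9 one of 0.07, and the list's median was -0.45.

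Of 19 genes for microtubule-associated proteins only MAP65-6, of a family that bundles microtubules, was measured. It fell by 0.43 (limma adjusted p 0.0225), but leaving out mock replicate 1 or 2 gave 0.0843 or 0.0697, leaving out dexamethasone replicate 1 or 2 gave 0.0668 or 0.0655, and the replicate block gave 0.0671. None of 3 measured genes of the division plane list passed in this fit. KIN13A, a kinesin gene and the 1 measured member of the wall patterning list, did not pass either, with a log2 change of -0.29 (limma adjusted p 0.13). The genes of calmodulins and of kinesin light chain-related proteins, known partners of IQD proteins, were not analysed here.

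Of 11 genes for other proteins with IQ motifs, which bind calmodulin but lie outside the IQD family, 7 were measured, 2 rose and none fell (over all probe sets with a gene, 9.04% rose and 9.54% fell). IQM5 had values of 2.95, 3.07 and 2.80 in mock and 5.21, 5.02 and 4.79 after dexamethasone, a log2 change of 2.07 (SE 0.14, limma adjusted p 2.87e-04). Its mock mean of 2.94 lay under the first quartile of every array, so the fold is approximate. IQM2 rose by 0.64 on the log2 scale (limma adjusted p 0.0199), a call lost when mock replicate 1 (0.0684) or 3 (0.065) or dexamethasone replicate 1 (0.0624) or 2 (0.0598) was left out. The 3 measured genes of CAMTA transcription factors had changes of -0.10 to -0.16 and did not pass. The median of the 7 was -0.10.

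**Figure D4:**
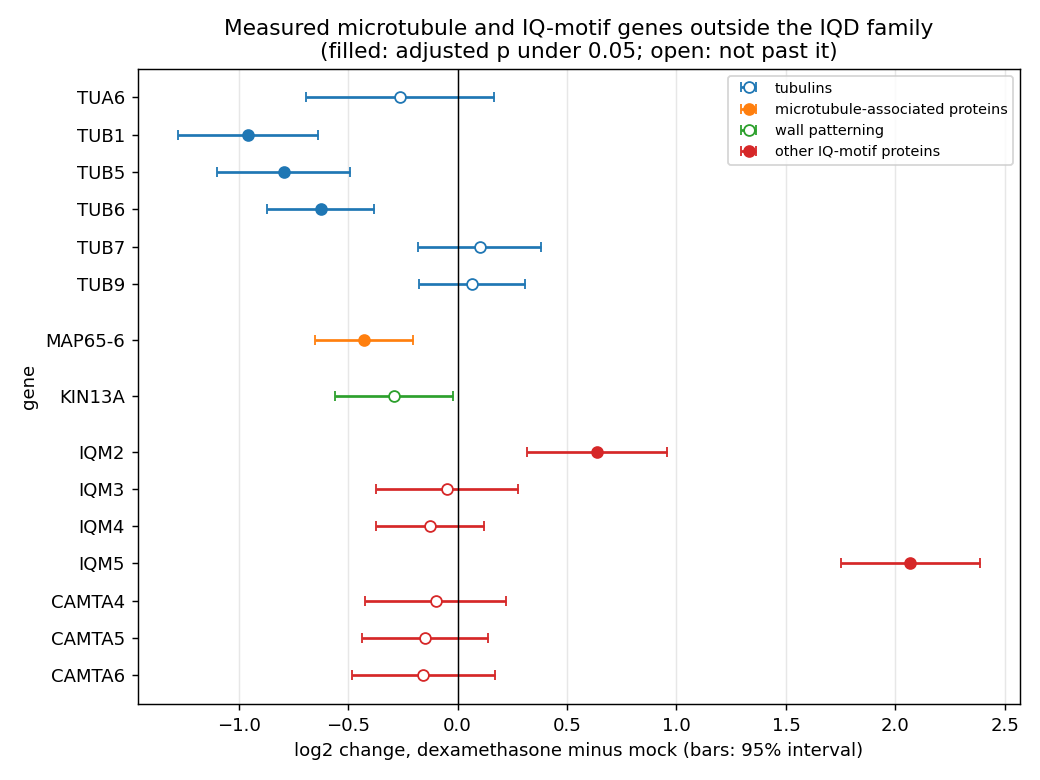
Log2 change, dexamethasone minus mock (horizontal axis), with 95% interval, of the measured genes of the tubulin, microtubule-associated, wall patterning and IQ-motif lists (vertical axis, coloured by list). Filled points passed an adjusted p of 0.05. TUB1, TUB5, TUB6 and MAP65-6 lie below 0, IQM2 and IQM5 above it.

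Markers of some tissues also differed between the groups. Of 5 root and root hair markers 2 were measured, EXPA7 with a log2 change of -1.23 and EXPA18 with one of -1.35, both past the threshold. Their summed linear signal was 135 to 162 in mock and 49.0 to 77.6 after dexamethasone. Of 5 photosynthesis markers 2 were measured, and their summed signal was 3390 to 3480 in mock and 2700 to 2960 after dexamethasone. RCA fell by 0.32 (limma adjusted p 0.0475), a call lost whichever array was left out, with adjusted p from 0.0701 to 0.139. It was also lost with the replicate block (0.101), with robust eBayes (0.0504) and with all 38408 probe sets in the fit (0.0674). The other marker, LHCB4.1, had a change of -0.23 and did not pass (limma adjusted p 0.12). For dividing cells, 2 of 6 markers were measured, and the sums were 286 to 336 in mock and 309 to 316 after dexamethasone, with AUR1 at a change of 0.06 and AUR2 at -0.01. The xylem markers were not analysed here. The part of these markers in the IQD values was not tested.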

How the data were processed

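The deposited table holds a log2 value for each probe set on each array. Per the submitters' processing notes, the tools included RMA and limma 3.24.15; which did what, the build and the summarisation level are not stated there. The table has 38408 probe sets, of which 17504 have a gene in the platform annotation and 16746 have exactly 1. Of the latter, 16601 matched a locus through the gene ID in the RefSeq table of TAIR10.1. Cross-hybridisation between IQD genes was not checked.

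The deposited log2 values were compared without further normalization, as dexamethasone minus mock, with limma 3.58.1 in R 4.3.3 (lmFit, eBayes, two-sided). The Benjamini-Hochberg adjustment covered all 17504 probe sets, with calls made under 0.05. SE and 95% intervals are moderated, and intervals are not adjusted. The code was tested on simulated data. Family members, number groups and function lists were chosen with earlier results of these data known. Number groups follow runs of the family numbering and were not checked against protein sequences. Every measured IQD gene is named. From each list the rule named up to 5 members past the threshold, or the one with the smallest p where none passed, except that the division plane gene so named is not reported here. Other members are given as values chosen after they were seen, as are the shares among brighter probe sets. The labels number the replicates but do not say that a number pairs flasks, so the reported fit has no replicate block. Deviations from the group means correlated at -0.0099, -0.0163 and 0.0305 between arrays of equal number.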

Additional observations from a re-analysis of the deposited data

How the results depend on the processing

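The rises of IQD15, IQD16 and IQD18 and the fall of IQD24 passed in every fit run, also at an adjusted p of 0.01. The number of IQD genes past the threshold was 5, and 4 to 5 with 1 array left out. It was 8 without the dimmest 30% of probe sets (5 rose and 3 fell) and 8 with an intensity trend (4 rose and 4 fell), settings under which the share over all probe sets also went up, from 18.6% to 32.6% and 24.8%. The first adds IQD19 (0.0357), IQD22 (0.0318) and IQD26 (0.0331), the second IQD19 (0.029), IQD22 (0.0123) and IQD32 (0.0286). Array weights added IQD19 (0.0495). IQD20 was lost with median centring (0.0513), robust eBayes (0.0535), the replicate block (0.101) and all probe sets tested (0.0839), and the replicate block left 4 IQD genes. Leaving out the dimmest 30% tests fewer probe sets than the reported fit, and the fit of all probe sets tests more. The cause of the shifts was not tested.

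Over all probe sets with a gene, 3252 passed, 3996 of 12253 without the dimmest 30%, 4348 with the trend, 2417 with the replicate block, 1205 at an adjusted p of 0.01 and 1724 to 2477 with 1 array left out, lowest without mock replicates 1 (1724), 2 (2017) and 3 (2119). Among other named genes, KIN13A (0.0354) and LHCB4.1 (0.0137) passed with the trend. Another probe set per locus could not be tried, since each IQD locus had 1. Dim genes such as IQM5 have approximate folds, as no background signal was used.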

Other observations

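The protein-coding genes on either side of IQD16 on chromosome 4, in the order of the RefSeq table, also rose. AT4G10630 had a log2 change of 1.07 (limma adjusted p 5.55e-04) and AT4G10650 one of 0.65 (limma adjusted p 0.0186). Genes of other types were passed over in finding neighbours. IQD16 was the 1 measured IQD gene with both neighbours past the threshold, among 5 with both neighbours measured. Next to IQD15, AT3G49370 had a change of 0.08 (limma adjusted p 0.659), and next to IQD18, AT1G01100 had one of 0.07 (limma adjusted p 0.625). Of 34 adjacent protein-coding genes 21 were measured, 4 rose and 4 fell, where over all probe sets with a gene 9.04% rose and 9.54% fell. The other rises were AT1G18850 next to IQD30 (0.54, limma adjusted p 0.00753) and AT2G02780 next to IQD29 (0.33, limma adjusted p 0.0454). The falls included NET1B next to IQD19 (-0.79, limma adjusted p 0.0137), whose protein belongs to an actin-binding family. AT1G14390 next to IQD28 (-0.73, limma adjusted p 0.00615) and AT4G23050 next to IQD22 (-0.50, limma adjusted p 0.0426) also fell. The last fall was the Aux/IAA gene IAA18 next to IQD27 (-0.47, limma adjusted p 0.0227). Calls of neighbours were not checked with arrays left out or under other settings. These neighbours were looked up after the IQD values were seen, and read-through or shared probes between adjacent genes were not tested.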
